A study of Mus musculus with 4 samples.

Results

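The genes examined here encode proteins that load and drive strand exchange in meiosis. They are 9 genes, Dmc1, Psmc3ip, Mnd1, Meiob, Spata22, Rpa1, Rpa2, Brca2 and Mcmdc2, taken by symbol from the 23420 genes of the deposited table. All 9 were found, and all lie on autosomes. RNA was measured in pachytene spermatocytes (PS) sorted by FACS from the testes of adult wild-type C57BL/6 mice and kept in culture for 24 h. The 2 Ctrl libraries were cultured with DMSO and the 2 AZ20 libraries with 10 µM AZ20, an inhibitor of the kinase ATR. Both groups therefore share the sort, the culture and the genotype, and no library of uncultured cells was analysed here. Cells of each mouse were split between the conditions, so libraries with the same replicate number form a pair. The comparison asks whether transcripts of strand exchange genes changed when ATR signaling was blocked in cells that had already silenced their sex chromosomes.

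Meiotic recombination begins with programmed DNA double-strand breaks, whose ends are cut back to single-stranded DNA. The single strand is first covered by RPA and by its meiotic relatives. BRCA2 then helps to load the meiotic recombinase DMC1, and the filament it forms searches the homologous chromosome and invades it. Breaks form early in prophase I, before the pachytene stage, and are repaired by its end on the autosomes.

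The level of the 9 genes spanned more than 3 orders of magnitude, and none changed enough with AZ20 to be called. Psmc3ip stood at 1322 TPM (a level corrected for gene length and library size that sums to 1000000 in each library) or more. Dmc1 stood below 1 TPM in every library. The plot of levels by library shows Psmc3ip far above the other genes in both conditions. Dmc1 lay below the other 7 genes in both, but close to Mcmdc2 in AZ20 (0.628 and 0.834 TPM against 1.02 and 2.21 TPM). Several neighbours in between overlapped.

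**Figure D1:**
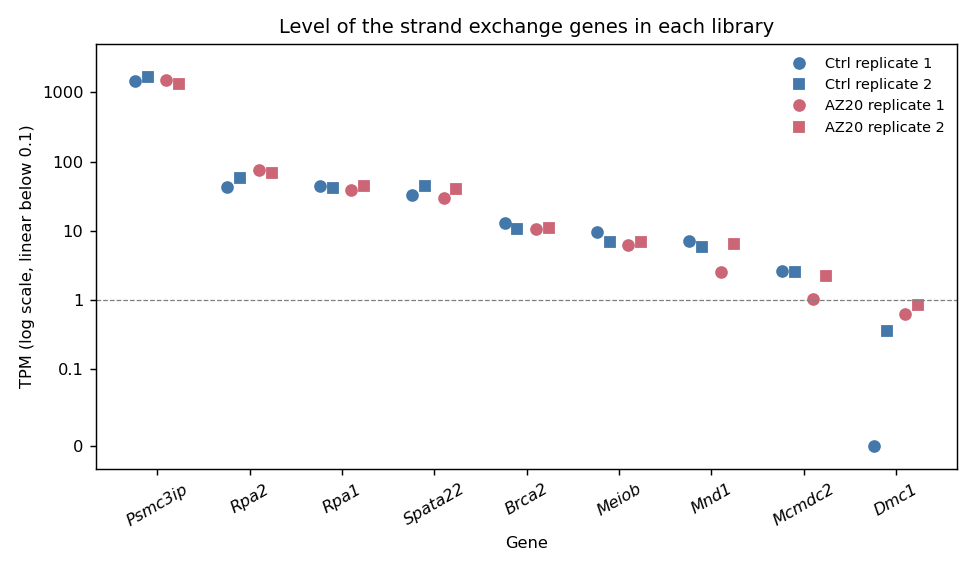
TPM of the 9 genes in each of the 4 libraries, on an axis that is logarithmic above 0.1 and linear below. Circles are replicate 1, squares replicate 2, blue Ctrl and red AZ20, and the dashed line marks 1 TPM. Psmc3ip lies at 1322 TPM or more, Dmc1 lies below 1 TPM, and AZ20 replicate 1 is low for Mnd1 and Mcmdc2.

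Before the genes are taken one by one, the libraries themselves need a description. The reads recovered from the TPM steps summed to at least 13556527 and 15393398 in Ctrl and to at least 19650081 and 18014539 in AZ20. Of 10 markers of pachytene spermatocytes, 9 were above 1 TPM in every library, and the exception was the linker histone gene Hist1h1t. Summed TPM of the list ranged from 7126 to 8428. Of 10 Sertoli cell markers, Sox9, Wt1, Fshr and Gata1 were at 0 in every library. Dhh was above 1 TPM in every library (1.34 to 1.68 TPM), and the list summed to at most 2.27 TPM. Of 7 Leydig cell markers 6 were at 0 in every library, and the list summed to at most 2.31 TPM. Macrophage and peritubular myoid markers summed to at most 1.36 and 4.81 TPM, with C1qa and Des at 0 and 1 myoid marker above 1 TPM in every library. Spermatogonial markers summed to between 44.6 and 76.5 TPM, most of it from Id4 and Uchl1, while Dmrt1 was at 0. Of 8 early prophase markers 7 were found, and 4 of them were above 1 TPM in every library. The list summed to between 2174 and 3050 TPM, most of it from Sycp3 (2061 to 2924 TPM). Stra8 was at 0 in every library and Mei4 was above 0 in 1 library, whereas Spo11, which encodes the enzyme that makes the breaks, stood at 86.1 to 103 TPM. Transcripts of round spermatids differed most between libraries. Of their 10 markers, 9 were above 1 TPM in every library. The list summed to 385 and 155 TPM in Ctrl and to 810 and 266 TPM in AZ20, so that AZ20 replicate 1 was highest. In bulk RNA, fewer cells of a type and less RNA in each cell cannot be told apart.

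The promoters of the most abundant gene, of its partner and of the least abundant gene are shown, because the largest contrast in level among the 9 genes lies between them. Each sequence is the RefSeq (GRCm38.p6) stretch of 250 bases before the annotated start, on the strand of the gene. Capitals mark a GC box (GGGCGG) or a CCAAT box (CCAAT), searched on both strands together with the cyclic AMP response element TGACGTCA. No marked matches overlap. Psmc3ip lies at chr11:101095436-101095685, Mnd1 at chr3:84155787-84156036 and Dmc1 at chr15:79605110-79605359, all on the minus strand.

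Psmc3ip: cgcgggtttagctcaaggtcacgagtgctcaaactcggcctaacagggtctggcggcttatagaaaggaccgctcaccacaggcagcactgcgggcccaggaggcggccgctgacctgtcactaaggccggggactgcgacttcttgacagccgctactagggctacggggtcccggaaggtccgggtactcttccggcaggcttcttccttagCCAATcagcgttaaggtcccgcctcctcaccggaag
Mnd1: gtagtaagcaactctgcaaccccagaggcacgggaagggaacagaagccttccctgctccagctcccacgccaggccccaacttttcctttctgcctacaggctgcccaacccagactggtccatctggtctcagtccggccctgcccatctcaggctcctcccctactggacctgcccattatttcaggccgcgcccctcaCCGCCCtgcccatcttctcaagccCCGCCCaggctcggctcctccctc
Dmc1: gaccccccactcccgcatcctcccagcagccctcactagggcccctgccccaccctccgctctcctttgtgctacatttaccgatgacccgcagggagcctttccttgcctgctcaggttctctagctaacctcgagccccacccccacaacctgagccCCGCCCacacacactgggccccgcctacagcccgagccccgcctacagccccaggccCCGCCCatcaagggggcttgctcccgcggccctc

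The Psmc3ip stretch held 1 CCAAT box, 36 bases before the start, and 0 GC boxes. Those of Mnd1 and Dmc1 held 0 CCAAT boxes and 2 GC boxes each. Among all 32841 promoters of the table, 33.9% hold a CCAAT box and 32.7% hold a GC box in the same window. The Psmc3ip window had 19 CpG dinucleotides, that of Dmc1 12 and that of Mnd1 8, against a median of 6 over all promoters. Of the 9 genes 7 had an entry, all but Meiob and Mcmdc2, and the cyclic AMP response element occurred in 1 of them, that of Brca2, against 1.55% of all promoters. These are matches of letters and not binding sites.

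Dmc1 encodes the recombinase that is particular to meiosis. It spans 79561497 to 79605109 on chromosome 15 of GRCm38. Ctrl gave 0 and 0.356 TPM and AZ20 gave 0.628 and 0.834 TPM, from 0, 9, 20 and 24 reads in the same order. Both AZ20 libraries were above both Ctrl libraries. In Ctrl replicate 1, 1 read would have been 0.0452 TPM and 3 reads 0.136 TPM, so 0 reads there do not exclude a level below 0.136 TPM. Ctrl averaged 0.178 ± 0.252 TPM and AZ20 averaged 0.731 ± 0.146 TPM (SD over 2 libraries each). Because neither mean passed 1 TPM, Dmc1 was left out of the test. When every gene above 0 was fitted, its change of log2(TPM + 1) was 0.57 (limma adjusted p = 0.625). That scale compresses changes at such levels, and the ratio of mean TPM was 4.11.

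Psmc3ip and Mnd1 encode HOP2 and MND1, which form a heterodimer that stabilizes recombinase filaments and helps them capture duplex DNA. Psmc3ip, which spans 101091823 to 101095436 on chromosome 11, was measured at 1440 and 1651 TPM in Ctrl and at 1530 and 1322 TPM in AZ20. The groups overlapped, and its log2 change was -0.12 (standard error 0.14, 95% interval -0.46 to 0.22, limma adjusted p = 0.882). Its mean ranked 101 of the 10316 genes tested in Ctrl and 110 in AZ20. Its 3' end overlaps that of Mlx, a gene on the other strand, by annotation.

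Mnd1, on chromosome 3 from 84087933 to 84155786, had 7.14 and 5.85 TPM in Ctrl and 2.52 and 6.36 TPM in AZ20. Only AZ20 replicate 1 was low, while AZ20 replicate 2 lay between the Ctrl libraries. The reads behind these values were 63, 59, 32 and 73, and AZ20 replicate 1 held 1.63 reads per 1000000 (95% exact binomial interval 1.11 to 2.30) against 3.83 (2.92 to 4.94) in Ctrl replicate 2. These intervals cover counting error only. The log2 change of Mnd1 was -0.55 (standard error 0.38, 95% interval -1.46 to 0.36, limma adjusted p = 0.771), with -1.21 between the libraries of pair 1 and 0.10 between those of pair 2. Without AZ20 replicate 1 it was -0.02. A processed pseudogene, Mnd1-ps, lies on chromosome 14, and reads that match both equally were not counted by the authors.

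The partners of this heterodimer thus differed by more than 200-fold in transcript level. Psmc3ip to Mnd1 gave ratios of 202 and 282 in Ctrl and of 608 and 208 in AZ20. Ordered by the distance of log2(TPM + 1) over the 4 libraries, Psmc3ip came at place 10210 of the 10315 genes compared with Mnd1. In the other direction, Mnd1 came at place 6477 of the 10315 genes compared with Psmc3ip. The distance includes the level, so these places restate the gap between the partners. The genes most like them by this measure were Cox5a for Psmc3ip (distance 0.12, with 1490 and 1611 TPM in Ctrl and 1508 and 1417 TPM in AZ20) and Fam35a for Mnd1 (distance 0.28, with 5.83 and 6.25 TPM in Ctrl and 2.73 and 6.31 TPM in AZ20). A gene chosen for its nearness over these 4 libraries has a like pattern by construction.

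**Figure D2:**
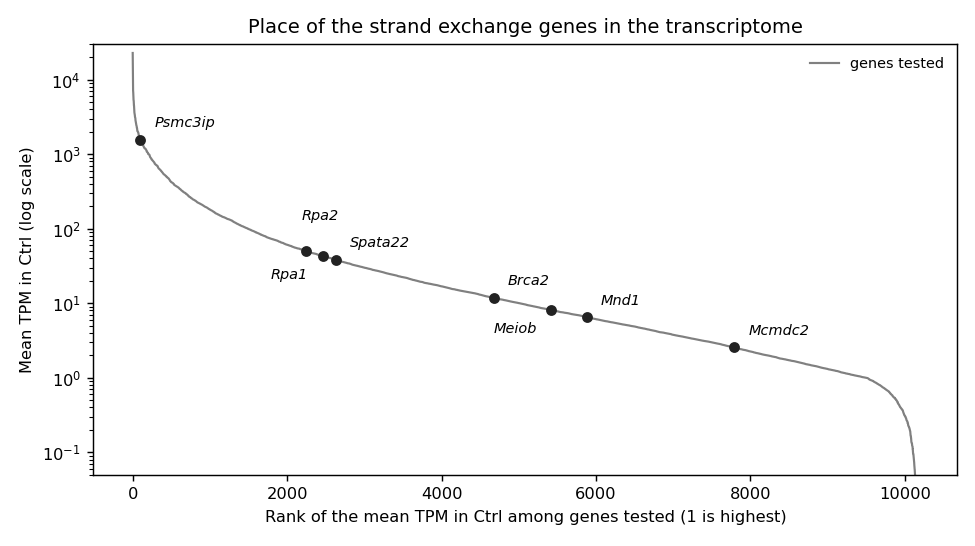
Mean TPM in Ctrl (logarithmic axis) of each gene tested, ordered from highest to lowest, with 8 strand exchange genes marked by points. Psmc3ip ranks 101, Rpa2, Rpa1 and Spata22 rank 2239 to 2631, and Mcmdc2 ranks 7788. Dmc1 was not tested and is not drawn.

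Brca2 encodes the loader that brings DMC1 to RPA-coated DNA. It spans 150522630 to 150570329 on chromosome 5. It had 12.8 and 10.7 TPM in Ctrl and 10.7 and 10.8 TPM in AZ20, on 1331 to 1674 reads. The log2 change was -0.12 (standard error 0.23, 95% interval -0.66 to 0.42, limma adjusted p = 0.934), and the second replicate pair differed by 0.00. The nearest gene over the 4 libraries was Triap1 (distance 0.07). Hsf2bp (MEILB2), whose protein brings BRCA2 to meiotic breaks, stood at 208 and 232 TPM in Ctrl and 226 and 244 TPM in AZ20. Its own partner Brme1, listed as 4930432K21Rik, had 5.88 and 7.96 TPM in Ctrl and 7.20 and 4.80 TPM in AZ20. Palb2, which links BRCA1 to BRCA2, had 26.0 and 30.1 TPM in Ctrl and 34.4 and 31.7 TPM in AZ20, with both AZ20 libraries higher. The log2 difference was 0.09 for Hsf2bp, -0.19 for Brme1 and 0.23 for Palb2 (limma adjusted p = 0.925, 0.916 and 0.827), none past the test.

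Rpa1 and Rpa2 encode the large and the middle subunit of RPA, the general single-strand binding protein of replication and repair. Rpa1, on chromosome 11 from 75298166 to 75348324, had 44.8 and 41.6 TPM in Ctrl and 39.2 and 43.6 TPM in AZ20. Its log2 change was -0.06 (standard error 0.19, 95% interval -0.51 to 0.39, limma adjusted p = 0.966). The groups overlapped.

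Rpa2, on chromosome 4 from 132768332 to 132778752, had 43.2 and 58.0 TPM in Ctrl and 74.4 and 67.5 TPM in AZ20. Both AZ20 libraries were above both Ctrl libraries, and the ratio of means was 1.40. Its log2 change of 0.49 was the highest of the 8 genes tested (standard error 0.21, 95% interval -0.01 to 1.0). It did not pass the test (limma adjusted p = 0.555). The ratio of Rpa1 to Rpa2 was 1.04 and 0.717 in Ctrl and 0.528 and 0.646 in AZ20, without overlap. An exact permutation test of 2 libraries against 2 that ignores the replicate pairs cannot give a two-sided p below 0.33. Rpa3, the small subunit, had 87.5 and 126 TPM in Ctrl and 92.7 and 151 TPM in AZ20 (log2 change 0.17, limma adjusted p = 0.923). It stood above Rpa1 by 1.95-fold to 3.46-fold in every library.

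Meiob and Spata22 encode a meiotic complex that binds single-stranded DNA together with RPA, and MEIOB resembles RPA1. Meiob, on chromosome 17 from 24804289 to 24839788, had 9.49 and 6.87 TPM in Ctrl and 6.30 and 6.76 TPM in AZ20, on 135 to 163 reads. Both AZ20 libraries were below both Ctrl libraries, by a small margin in replicate 2. The log2 change was -0.27 (standard error 0.26, 95% interval -0.89 to 0.34, limma adjusted p = 0.836).

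Spata22, on chromosome 11 from 73329741 to 73346044, had 32.4 and 43.8 TPM in Ctrl and 29.3 and 40.0 TPM in AZ20. In both conditions replicate 2 was higher, and the log2 change was -0.14 (standard error 0.25, 95% interval -0.73 to 0.45, limma adjusted p = 0.933). The changes of the replicate pairs were -0.14 and -0.13. By annotation it shares its start with the longer gene model Gm49340. Spata22 exceeded its partner Meiob by 3.42-fold and 6.38-fold in Ctrl and by 4.64-fold and 5.91-fold in AZ20, and Rpa1 exceeded Meiob by 4.72-fold to 6.46-fold. The closest gene to Spata22 over the 4 libraries was Atp1b3 (distance 0.18). The closest to Meiob was Dnase1l3 (distance 0.12).

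**Figure D3:**
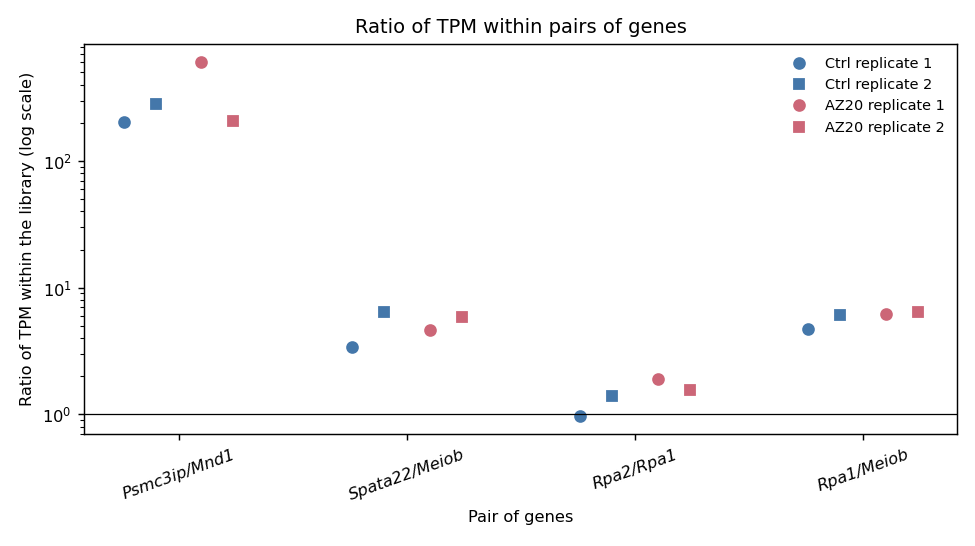
Ratio of TPM within each library for 4 pairs of genes, on a logarithmic axis with a line at equal levels. Blue is Ctrl and red AZ20, circles are replicate 1 and squares replicate 2. Psmc3ip is 202 to 608 times Mnd1, whereas the other 3 ratios lie between 0.963 and 6.46.

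Mcmdc2 encodes a meiotic protein related to the MCM helicases and needed for strand exchange to stabilize homologous pairing. It lies on chromosome 1 from 9908638 to 9942085, and its annotated 3' end overlaps Snhg6 on the other strand. Whether counting used strand is not given in the sources used here, so reads of overlapping genes cannot be told apart. It had 2.60 and 2.51 TPM in Ctrl and 1.02 and 2.21 TPM in AZ20, from 67, 74, 38 and 74 reads. Both AZ20 libraries were below both Ctrl libraries, and AZ20 replicate 1 held 1.93 reads per 1000000 (95% exact binomial interval 1.37 to 2.65) against 4.81 (3.77 to 6.04) in Ctrl replicate 2. The log2 change was -0.48 (standard error 0.34, 95% interval -1.28 to 0.32, limma adjusted p = 0.775). Without AZ20 replicate 1 it was -0.15 and without AZ20 replicate 2 it was -0.81. AZ20 replicate 1 was the lowest library for 6 of the 8 genes tested, Mnd1, Mcmdc2, Meiob, Spata22, Rpa1 and Brca2. The share of all genes that were lowest in this library was not computed, so the count may not be particular to these genes. AZ20 replicate 1 was the highest for the summed round spermatid markers (810 TPM), and the part of these markers in the lower values was not tested.

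Taken by level, the order of the 9 genes was the same in both conditions: Psmc3ip, Rpa2, Rpa1, Spata22, Brca2, Meiob, Mnd1, Mcmdc2 and Dmc1. In Ctrl, neighbours whose libraries overlapped were Rpa2 and Rpa1, Rpa1 and Spata22, and Meiob and Mnd1. In AZ20, Rpa1 and Spata22 overlapped, as did Meiob and Mnd1, while Rpa2 stood apart from Rpa1. The other neighbours did not overlap.

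The main limma fit had no term for the replicate pair. Of the 8 genes tested, 0 were called in it at a change of TPM + 1 of at least 2-fold and an adjusted p under 0.05. In the same fit 0 passed an unadjusted p under 0.05. Voom on the recovered reads also called 0. Over all 10316 genes tested, 2.28% were called higher and 0.0485% lower, and over the 9937 autosomal ones 0.101% and 0.0503%. At an unadjusted p under 0.05, 5.16% of autosomal genes were higher and 1.18% lower. Both AZ20 libraries were above both Ctrl libraries for 1 of the 8 genes tested, against 24.1% of autosomal genes, and below for 2 of the 8, against 12.2%. The change was below 0 for 7 of the 8, against 41.6% of autosomal genes, and the median was -0.13, beside 0.06 over autosomal genes. Without AZ20 replicate 1 the change was below 0 for 5 of the 8 and the median was -0.07, without AZ20 replicate 2 the median was -0.22, and with quantile normalization it was -0.28, where the median over all genes tested shifted from 0.07 to -0.07. The 95% interval stayed within a 2-fold change of TPM + 1 for 6 of the 8 genes, against 65.3% of autosomal genes. Mnd1 and Mcmdc2 were the exceptions, and for Rpa2 the upper bound was close to 2-fold. This scale understates changes of low genes, so a 2-fold change of TPM itself is not excluded for all 6.

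The other genes of strand exchange were taken from a list of 28, of which 26 were tested. Of these 0 were called in either direction, by limma or by voom, and 0 had an unadjusted p under 0.05. Both AZ20 libraries were above both Ctrl libraries for 7 of the 26, against 24.1% of autosomal genes. They were below for 4 of the 26, against 12.2%. Changes were above 0 for 17 and below 0 for 9, with a median of 0.09, and 58.4% of autosomal genes were above 0. With quantile normalization 10 were above 0 and 16 below (median -0.06), and without AZ20 replicate 2 15 were above 0 and 11 below (median 0.04). The highest were those of Xrcc3 (0.74), a homologous recombination gene, Rad52 (0.52), which anneals single strands, and Mcm9 (0.49), a helicase. Xrcc3 had 0.532 and 1.5 TPM in Ctrl and 2.36 and 2.17 TPM in AZ20, and its groups did not overlap (limma adjusted p = 0.637). Rad52 had 14.1 and 17.9 TPM in Ctrl and 19.8 and 27.3 TPM in AZ20 (limma adjusted p = 0.643). The lowest changes on this scale were those of the translocase genes Rad54l (-0.41) and Rad54b (-0.34) and of Tex15 (-0.37), which is needed to load recombinases. Tex15 was low, with 1.19 and 0.969 TPM in Ctrl and 0.499 and 0.716 TPM in AZ20. With 0.1 instead of 1 added to TPM its change was -0.75, against -0.47 for Rad54l, so their order depends on the scale. The log2 change of Mcm8, the helicase partner of Mcm9, was 0.14, but -0.13 with quantile normalization.

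A wide gap between partners was not limited to Psmc3ip and Mnd1. Swi5 and Sfr1 encode a pair that stimulates strand exchange. Swi5 had 821 and 902 TPM in Ctrl and 1005 and 960 TPM in AZ20, and exceeded Sfr1 by 8.80-fold to 10.5-fold within the libraries. Their log2 changes were 0.19 and 0.20 (limma adjusted p = 0.775 and 0.827), with both AZ20 libraries above both Ctrl libraries for each. Zswim7 and Swsap1, which form a complex that promotes recombinase assembly, were singled out after their values were seen, as were the ratios of Swi5 to Sfr1 and of Rpa3 to Rpa1. Zswim7 had 919 and 851 TPM in Ctrl and 849 and 791 TPM in AZ20, with both AZ20 libraries below both Ctrl libraries. It exceeded Swsap1 by 533-fold to 737-fold. Swsap1 itself had only 1.66 and 1.60 TPM in Ctrl and 1.27 and 1.07 TPM in AZ20. These levels rested on 31, 34, 34 and 26 reads, so the size of this ratio is uncertain.

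**Figure D4:**
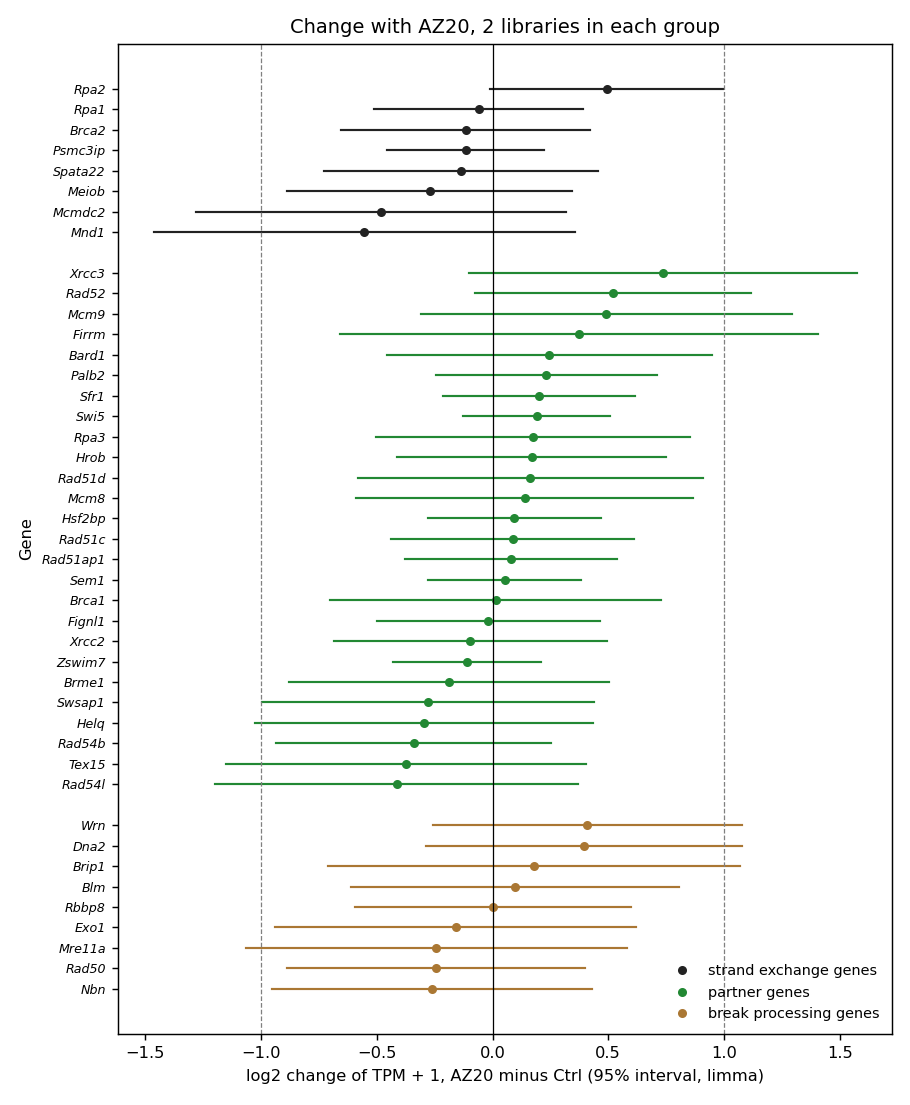
Log2 change of TPM + 1 (AZ20 minus Ctrl) with its 95% limma interval for the 8 strand exchange genes tested (black), 26 partner genes (green) and 9 break processing genes (brown), each from 2 libraries in each group. Dashed lines mark a 2-fold change of TPM + 1. The interval of every strand exchange gene crosses 0, and those of Mnd1 and Mcmdc2 reach beyond a 2-fold decrease.

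Genes that cut back the ends of breaks precede strand exchange. All 9 of that list were tested and 0 were called by limma or voom, with 0 at an unadjusted p under 0.05. The median change was 0.00, with 5 above 0 and 4 below, and with quantile normalization 2 were above 0 and 7 below. The highest were those of the helicase and nuclease genes Wrn (0.41), Dna2 (0.40) and Brip1 (0.18, but -0.11 with quantile normalization). The lowest were those of Nbn (-0.26), Rad50 (-0.25) and Mre11a (-0.24), which encode the MRN complex.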

How the data were processed

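RNA-seq libraries of 2 Ctrl and 2 AZ20 cultures were used. Per the labels and the paper's methods, adapters were removed with Trimmomatic 0.39, STAR 2.5.4b placed the reads on GRCm38, and featureCounts 2.0.1 assigned unique alignments to UCSC refGene. The authors deposited TPM for each library, computed from these assignments. Whole reads were recovered from the TPM steps, since libraries share a gene's length. All 16857 genes above 0 came out whole, as lower bounds, because a common factor cannot be seen. For the 9 genes, reads per TPM and transcript base lay between 0.632 and 1.11 times their median. The 92 blank lines were left out.

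Genes with a mean TPM above 1 in either group were fitted with limma 3.58.1 (R 4.3.3) on log2(TPM + 1), a scale that understates changes of low genes, with an intensity trend and Benjamini-Hochberg adjustment over all of them. This main fit had no term for the replicate pair, and the limma intervals printed for single genes come from it. The replicate block added that term. Scripts were tested on simulated data. The methods state that each mouse's cells were split between conditions, so replicate numbers pair the libraries, and deviations of same-numbered libraries correlated (0.23 over autosomal genes). Coordinates are from GENCODE M21. The 9 genes and all lists were chosen with earlier results of these data known. Named genes are the 9, any gene of the partner and break processing lists that was called or had an unadjusted p under 0.05, the 3 highest and 3 lowest changes of each list, 10 genes that act with the 9, and the nearest gene by Euclidean distance of log2(TPM + 1). Intervals came from scipy 1.17.1 under Python 3.11.15. Some results on other strand exchange genes are not reported here.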

Additional observations from a re-analysis of the deposited data

How the results depend on the processing

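No strand exchange, partner or break processing gene was called under any of the alternatives (0 in each). These were a pseudocount of 0.1, no expression filter, a mean TPM above 5, autosomal scaling, quantile normalization, no trend, adjusted p alone, each library left out, the replicate block and voom on recovered reads, which was added once the data had been seen. With the replicate block the smallest adjusted p of the 9 genes was 0.348 (Rpa2), and no call changed. Without either AZ20 library limma called 0 genes of the whole table, so the lack of calls there says nothing about stability. Left-out libraries moved log2 changes over -0.222 to -0.0113 (Psmc3ip), -1.09 to -0.0205 (Mnd1), -0.479 to -0.0651 (Meiob), -0.355 to 0.0812 (Spata22), -0.134 to 0.0157 (Rpa1), 0.285 to 0.703 (Rpa2), -0.233 to 0.000223 (Brca2) and -0.813 to -0.148 (Mcmdc2), so those of Spata22, Rpa1 and Brca2 turned. Quantile normalization moved the median of all genes from 0.07 to -0.07 and turned 7 of 26 partner and 3 of 9 break processing genes, among them Mcm8 (-0.131) and Brip1 (-0.110). Each left-out library turned 2 to 6 partner and 1 to 5 break processing genes, the most without AZ20 replicate 2, and of the named ones the ranges were -0.177 to 0.522 (Rpa3), -0.438 to 0.0621 (Brme1), -0.61 to 0.126 (Mre11a), -0.521 to 0.0283 (Rad50), -0.572 to 0.0489 (Nbn) and -0.205 to 0.565 (Brip1), and the cause was not tested. Over all genes 235 were called higher and 5 lower, against 424 and 23 with the replicate block, and 184 and 1 or 158 and 1 without Ctrl replicate 1 or 2. Mcmdc2 could not be fitted above 5 TPM, and Dmc1 only without a filter. Dmc1 rested on 0 to 24 reads, and Ctrl replicate 1 lay below the counting intervals of the other libraries for it. AZ20 replicate 1 likewise lay below those of the other libraries for Mnd1 and Mcmdc2.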
